A study of Homo sapiens with 10 samples.

Results

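The collagen genes were examined in 10 RNA sequencing libraries of the established human lung cancer cell lines H460 and A549. They were taken as every protein-coding gene listed under a symbol of the form COL, a number, A and a number, without regard to expression. This gave 44 genes of the 46427 listed, of which 19672 were protein coding. In 24 of the 44, the deposited FPKM (mapped fragments scaled to gene length and library size) reached 1 in at least 1 library. The remaining 20 stayed below 1 everywhere, with a highest FPKM of 0.786.

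The libraries comprised 3 of parental H460 cells in 2D culture, 1 of cisplatin-resistant (CR), 2 of paclitaxel-resistant (PR) and 1 of doxorubicin-resistant (DR) H460 cells, 1 of H460 tumor spheroid (TS) cells, and 1 each of A549 cells in 2D and TS culture. The resistant cells were the survivors of 4 µM cisplatin, 5 nM paclitaxel or 0.5 µM doxorubicin, given for 3 days and followed by 3 days in fresh medium and re-plating. TS cells had been passaged as spheres on coated plates in B27 medium supplemented with EGF and basic FGF. The sample labels call them CTC or sphere cultures. No library is labelled as coming from a separate culture, so the p-values measure the spread between these libraries, which may be technical. Where the CR, PR and DR libraries are taken as 1 group, that spread and the SD also include differences between the drugs.

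Library totals of gene-assigned reads ranged from 59499787 to 89541774. H460 cells had the keratins of epithelial cells (KRT8 between 283 and 751 FPKM) but almost no E-cadherin (CDH1 at most 0.0266 FPKM), whereas A549 cells had both (CDH1 at 9.29 FPKM in 2D). Of 8 fibroblast markers only LUM and PDGFRB reached an FPKM of 1 in any library, and no endothelial marker did, with a summed FPKM of at most 0.484. Among leukocyte markers PTPRC and CD3E were at or near 0, while CD68, a lysosomal protein, was between 15.0 and 69.8.

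Collagens are trimers of alpha chains, each encoded by its own gene and wound into a helix of glycine-rich repeats. Fibrillar collagens form the tensile fibers of connective tissue, and type IV collagens form the sheet-like network of basement membranes on which epithelial cells rest. Type VI makes beaded filaments beside the cell surface, type VII the fibrils that anchor epithelium to the underlying stroma, and type VIII a short-chain network first known from vessels and cornea. FACIT collagens decorate fibrils, transmembrane collagens such as types XIII and XVII sit in the plasma membrane, and the multiplexins XV and XVIII belong to basement membrane zones. In lung tumors, fibrillar collagens are mostly known as products of stromal fibroblasts, while carcinoma cells contribute basement membrane chains.

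Most collagen message in H460 cells came from a single fibrillar gene. COL5A2, which encodes the second chain of type V collagen, had an FPKM of 328, 425 and 516 in the parental libraries, 627 in CR, 436 and 449 in PR, 538 in DR and 300.3 in TS cells. It made up between 49.2% and 71.7% of the summed collagen FPKM in the 8 H460 libraries. COL8A1, a type VIII chain, came second in each of them, with 64.4, 63.4 and 69.1 in the parental libraries. A549 cells had a different composition, with COL18A1 first in 2D culture (37.7, or 19.7% of the sum) and COL5A2 first in TS culture (99.3, or 42.7%).

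**Figure D1:**
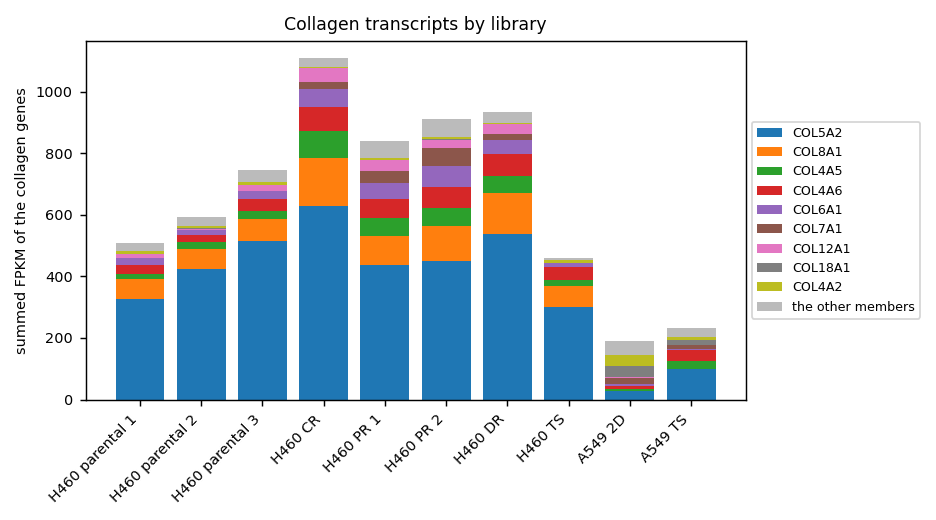
Summed FPKM of the 44 collagen genes (y axis) in each of the 10 libraries (x axis), with 9 genes shown by color and all others in light grey. COL5A2 fills 49.2% to 71.7% of each H460 bar, and the CR bar is the highest at 1109.

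The summed collagen FPKM was 507, 592 and 744 in parental cells, 1109 in CR, 838 and 912 in PR, and 935 in DR. All 4 drug-resistant libraries therefore lay above all 3 parental ones, and the mean was 1.54 times that of parental cells (949 ± 115 against 615 ± 120 FPKM, SD, n = 4 and 3). The gap was wider without COL5A2, at 436 ± 43.0 against 192 ± 32.1 FPKM, or 2.28 times. H460 TS cells had 461 in all and A549 cells 191 in 2D and 233 in TS culture. In bulk RNA, a change in the number of cells that use a gene and a change in its message per cell cannot be told apart.

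**Figure D2:**
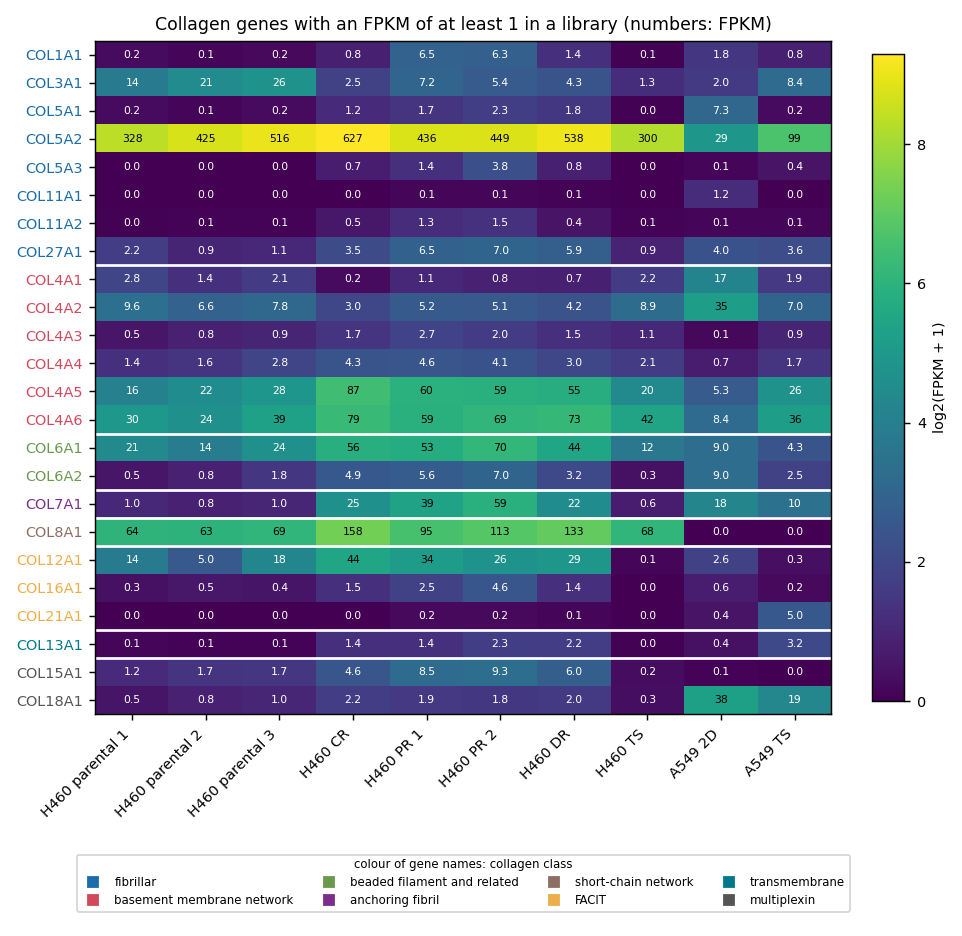
FPKM of the 24 collagen genes that reached 1 in a library (vertical axis) in each library (horizontal axis), with color on the log2(FPKM + 1) scale. COL7A1 goes from about 1 in parental H460 cells to between 22.0 and 58.7 after drug, and COL8A1 is at 0 in both A549 libraries.

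Drug-resistant cells were compared with parental H460 cells to find which collagen genes differ after chemotherapy. With the quasi-likelihood test of edgeR on the read counts (4 against 3 libraries), 33 of the 44 members had enough reads to be tested. Of these, 25 were higher and 3 were lower in drug-resistant cells at an adjusted p under 0.05, beside 18.5% of all 18398 genes tested called higher and 15.3% called lower. Their median log2 fold change was 1.91, against 0.06 over all genes tested. The members called lower were COL3A1, COL4A1 and COL4A2. Those tested and not called were COL5A2, COL6A3, COL9A2, COL9A3 and COL14A1.

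With upper-quartile scaling, 4210 genes were called higher and 2032 lower in place of 3397 and 2823, and the median of all genes moved to 0.23, while 26 members were higher and 3 lower. Without both PR libraries, 20 members were higher and 3 lower of 32 tested, beside 9.82% and 8.86% of all genes in that fit. Among all genes reaching an FPKM of 1 in these libraries, every drug-resistant library lay above every parental one for 22.1% and below for 16.9%. For collagen genes these counts were 18 and 3 of 22. A gene below 1 in every parental library entered through its resistant libraries alone and could be counted above but not below. COL1A1, COL4A3, COL5A1, COL5A3, COL11A2, COL13A1 and COL16A1 entered in this way, and the shares of all genes hold such genes too.

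**Figure D3:**
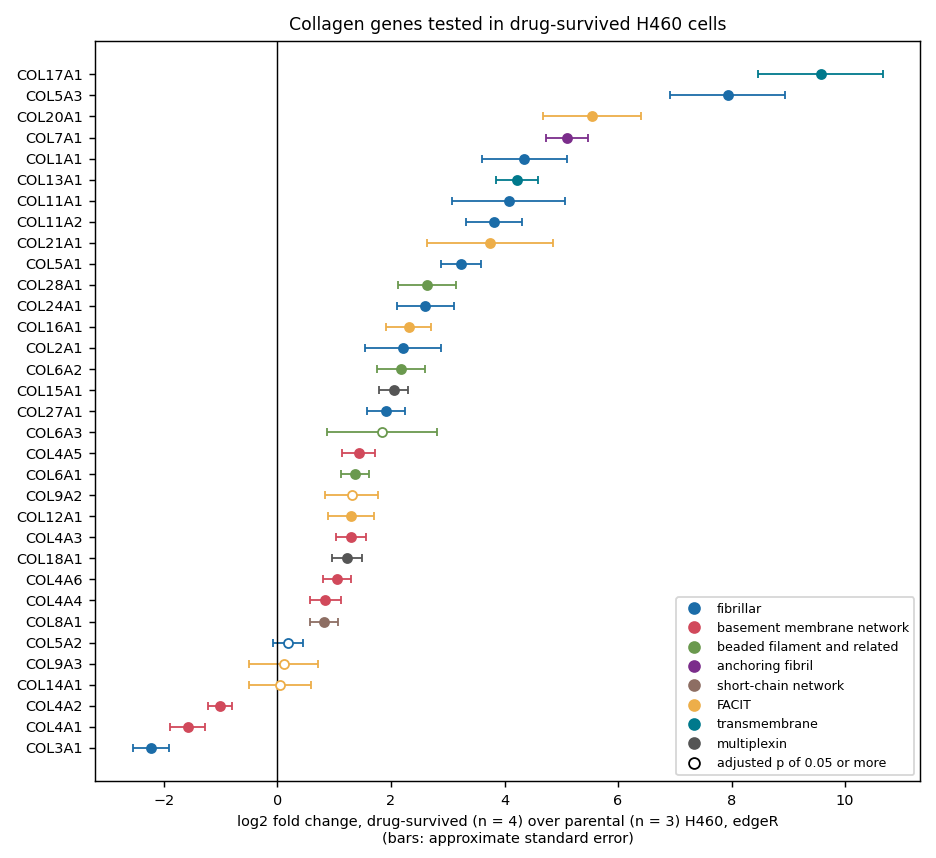
Log2 fold change of the 33 collagen genes tested, drug-resistant (n = 4) over parental (n = 3) H460 cells, with approximate standard errors (the fold change divided by the root of the F statistic). Filled points passed an adjusted p of 0.05, and COL17A1 was fitted against 0 reads in all 3 parental libraries, so its point depends on the prior count.

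The 6 type IV genes split by chromosome into pairs that moved together. In the genome they lie head to head, with 126 bases between COL4A1 and COL4A2 on chromosome 13, 135 between COL4A4 and COL4A3 on chromosome 2, and 379 between COL4A6 and COL4A5 on the X chromosome (RefSeq genes, GRCh38.p14). The windows of 300 bases around the start sites of the plus-strand member of each pair are printed here because the pairs are where members went in opposite directions. In the COL4A2 window (chr13:110307034-110307333, plus strand) the capitals run from the start site of COL4A1, which is read leftward, to that of COL4A2. In the COL4A3 window (chr2:227164374-227164673, plus strand) they mark the GC box GGGCGG, and in the COL4A5 window (chrX:108439588-108439887, plus strand) they mark CCAAT, each on either strand.
COL4A2: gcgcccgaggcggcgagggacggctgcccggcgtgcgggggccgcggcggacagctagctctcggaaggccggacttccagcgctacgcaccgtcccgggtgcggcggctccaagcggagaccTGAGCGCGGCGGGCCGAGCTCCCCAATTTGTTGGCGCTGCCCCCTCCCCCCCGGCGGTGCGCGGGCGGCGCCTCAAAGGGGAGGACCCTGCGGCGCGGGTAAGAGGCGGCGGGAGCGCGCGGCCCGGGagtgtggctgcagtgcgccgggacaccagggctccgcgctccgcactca
COL4A3: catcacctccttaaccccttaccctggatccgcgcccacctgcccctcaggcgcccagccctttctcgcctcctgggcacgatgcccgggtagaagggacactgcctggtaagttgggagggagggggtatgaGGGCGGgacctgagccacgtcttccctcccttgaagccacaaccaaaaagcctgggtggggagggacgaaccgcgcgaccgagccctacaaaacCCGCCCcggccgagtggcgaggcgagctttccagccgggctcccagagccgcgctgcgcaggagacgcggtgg
COL4A5: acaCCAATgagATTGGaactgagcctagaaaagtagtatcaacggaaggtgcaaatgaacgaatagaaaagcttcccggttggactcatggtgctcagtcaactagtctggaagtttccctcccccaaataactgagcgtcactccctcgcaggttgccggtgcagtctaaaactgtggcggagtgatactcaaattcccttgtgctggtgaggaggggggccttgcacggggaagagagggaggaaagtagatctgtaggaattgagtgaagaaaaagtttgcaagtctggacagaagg
The GC box was present in 45% and the COL4A5 motif in 34.6% of 35116 RefSeq promoter windows of the same length, and neither motif contains the other. Among the 44 windows found for 32 of the collagen genes, 24 held the GC box and 14 the COL4A5 motif. A TATA box, spelled TATAAA, was in 8 of them, against 11.5% of all windows, and the AP-1 motif TGANTCA in 1, against 7.71%. A match of this kind is only a description of the letters.

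COL4A1 and COL4A2 encode the chains found in nearly all basement membranes. COL4A1 had an FPKM of 2.83, 1.40 and 2.13 in parental cells and of 0.218 in CR, 1.06 and 0.807 in PR and 0.747 in DR. COL4A2 had 9.63, 6.57 and 7.76 in parental cells against 2.96 in CR, 5.21 and 5.07 in PR and 4.21 in DR. Neither gene's groups overlapped, and both fell, by 1.58 ± 0.31 (COL4A1, adjusted p = 0.00364) and 1.01 ± 0.21 (COL4A2, adjusted p = 0.00558) on the log2 scale (edgeR, approximate SE). The FPKM per read of COL4A1, corrected for library size, differed 2.15-fold between CR, where it was lowest, and DR. The test used the reads, of which CR had 274 against 676 to 1577 in parental libraries.

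COL4A3 and COL4A4, which pair with COL4A5 in the membranes of the kidney glomerulus and the lung alveolus, moved the other way. COL4A3 was at 0.474, 0.791 and 0.945 FPKM in parental cells, 1.72 in CR, 2.68 and 2.04 in PR and 1.46 in DR (log2 fold change 1.30 ± 0.27, adjusted p = 0.00485). COL4A4 was at 1.39, 1.62 and 2.82 in parental cells, 4.28 in CR, 4.61 and 4.10 in PR and 2.96 in DR (0.84 ± 0.27, adjusted p = 0.0364). For COL4A4 the lowest resistant library barely exceeded the highest parental one. Its call was lost when a library was left out, with an adjusted p of 0.137 without parental replicate 1, 0.143 without parental replicate 2, 0.0805 without CR, 0.072 without PR replicate 1, 0.0514 without PR replicate 2 and 0.116 without both PR libraries. With no filter on low counts it was 0.0546.

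COL4A5 and COL4A6, the X-linked pair, had the highest type IV levels in H460 cells. COL4A5 was at 15.9, 22.2 and 28.4 FPKM in parental cells and at 86.7 in CR, 59.8 and 58.5 in PR and 54.9 in DR. COL4A6 was at 29.8, 24.3 and 38.7 against 78.5 in CR, 59.2 and 68.6 in PR and 72.8 in DR. Both rose, with log2 fold changes of 1.43 ± 0.29 (COL4A5, adjusted p = 0.00494) and 1.05 ± 0.25 (COL4A6, adjusted p = 0.00919). Summed over the class, type IV FPKM went from 65.9 ± 13.0 in parental to 146 ± 19.3 in drug-resistant cells (SD, n = 3 and 4), nearly all of it from the X-linked pair.

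**Figure D4:**
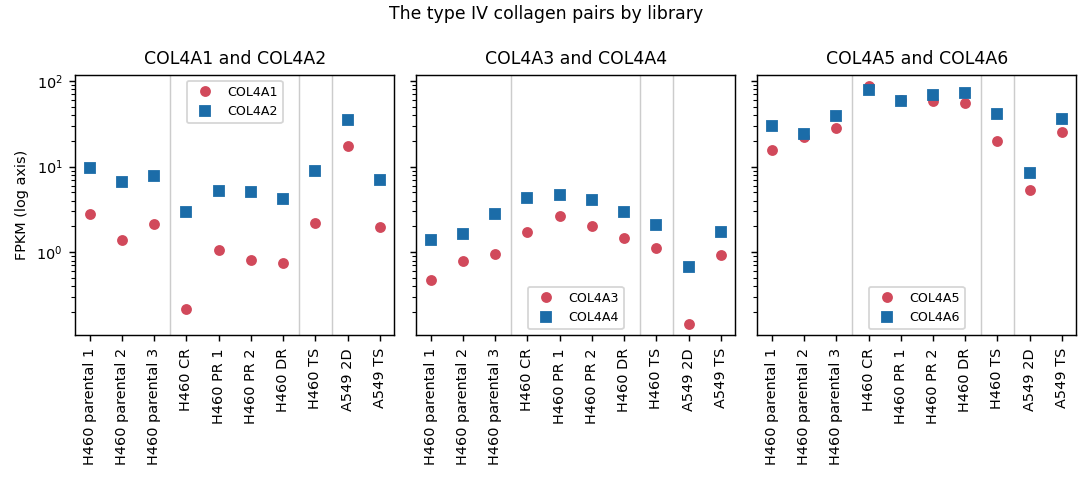
FPKM (log axis) of the 3 type IV pairs in the 10 libraries, with 1 point per library and gene and grey lines between the groups. In the drug-resistant libraries COL4A1 and COL4A2 lie below, and the other pairs above, every parental library. A549 TS lies below A549 2D for COL4A1 and COL4A2 and above it for the other pairs.

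Of the 11 fibrillar genes, 10 were tested, with 8 higher and 1 lower. COL3A1, the type III chain of elastic tissues, had an FPKM of 13.6, 21.3 and 26.5 in parental cells, 2.50 in CR, 7.22 and 5.37 in PR and 4.29 in DR. It was the most reduced member and fell by 2.23 ± 0.32 on the log2 scale (adjusted p = 0.000865). Its neighbor COL5A2, which starts 19151 bases beyond the end of COL3A1 on chromosome 2, did not pass (0.18 ± 0.26, adjusted p = 0.626). The levels of the parental libraries overlapped those of the resistant ones for COL5A2.

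COL1A1, the main chain of type I collagen, was at 0.193, 0.0848 and 0.188 FPKM in parental cells and at 0.783 in CR, 6.51 and 6.26 in PR and 1.41 in DR. The resistant libraries all lay above the parental ones, with the PR libraries highest (4.35 ± 0.75, adjusted p = 0.00208). COL1A2, the partner that completes type I collagen, had 0 reads in every parental library, 0 in CR, 18 and 15 in PR and 7 in DR. COL1A1 FPKM was therefore between 105 and 159.5 times that of COL1A2 in the 3 libraries with reads of both.

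The other type V chains rose from low levels. COL5A1, which with COL5A2 forms the usual type V trimer, was at 0.21, 0.0885 and 0.202 FPKM in parental cells and at 1.22 in CR, 1.71 and 2.28 in PR and 1.84 in DR (3.24 ± 0.35, adjusted p = 0.000266). COL5A2 FPKM remained between 197 and 512 times that of COL5A1 in resistant cells, compared with 1565 to 4802 times in parental cells. COL5A3 had 9, 0 and 0 reads in the parental libraries and 380, 747, 1568 and 485 in CR, PR and DR (7.93 ± 1.01, adjusted p = 0.000469). Its size rests on parental replicate 1, the only parental library with reads, and was 12.66 without it.

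Among the remaining fibrillar genes, COL27A1 was at 2.19, 0.927 and 1.12 FPKM in parental cells and at 3.49 in CR, 6.48 and 7.00 in PR and 5.95 in DR (1.91 ± 0.33, adjusted p = 0.00222). COL11A2, a chain of cartilage type XI collagen, was at most 0.0706 in parental cells and at 0.528 in CR, 1.29 and 1.52 in PR and 0.397 in DR (3.81 ± 0.49, adjusted p = 0.000475). COL24A1 also rose (2.60 ± 0.50, adjusted p = 0.00377) but stayed below an FPKM of 1. COL2A1, the cartilage collagen, and COL11A1 were called at even lower levels, with at most 227 reads and 52 reads in the H460 libraries.

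The last 2 calls were less stable. For COL2A1 (2.21, adjusted p = 0.0288) the adjusted p was 0.102, 0.0818 and 0.0609 without parental replicate 1, 2 or 3, 0.0799 without PR replicate 2, 0.228 without both PR libraries and 0.0665 with the form of the library name (a possible batch) as a covariate. For COL11A1 (4.07, adjusted p = 0.0111) it was 0.05 without parental replicate 2 and 0.0613 without both PR libraries, and the log2 fold change was 8.24 without parental replicate 1, the only parental library with reads.

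Type VI collagen needs COL6A1, COL6A2 and a further chain, of which COL6A3 is the common one. COL6A1 had an FPKM of 20.7, 14.1 and 24.3 in parental cells, 56.3 in CR, 52.6 and 70.3 in PR and 43.8 in DR (1.36 ± 0.25, adjusted p = 0.00293). COL6A2 had 0.483, 0.827 and 1.75 against 4.93 in CR, 5.57 and 7.03 in PR and 3.20 in DR (2.18 ± 0.42, adjusted p = 0.00382). Both rose without overlap of the groups. COL6A1 FPKM exceeded that of COL6A2 by 9.44 to 13.7 times in resistant cells and 13.9 to 42.8 times in parental cells.

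COL6A3 remained below an FPKM of 1, at 0.0875, 0.0168 and 0.0734 in parental cells, 0.0111 in CR, 0.297 and 0.612 in PR and 0.0939 in DR. Only the PR libraries stood clearly above the parental range, and the member did not pass in the test of all 4 resistant libraries (1.85 ± 0.97, adjusted p = 0.163). COL28A1, a relative of type VI, rose at low level, from at most 44 reads in parental to between 172 and 244 reads in resistant libraries (2.63 ± 0.51, adjusted p = 0.0037). COL6A5 and COL6A6 had at most 25 reads in any library, and COL26A1 was seen mainly in A549 cells, with 183 reads in 2D and 144 in TS culture.

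COL7A1, the chain of the anchoring fibrils of epithelium, showed the largest change of any member with an FPKM above 10. It was at 1.03, 0.81 and 1.01 FPKM in parental cells and at 24.6 in CR, 39.5 and 58.7 in PR and 22.0 in DR. The groups were far apart, and the log2 fold change was 5.10 ± 0.37 (adjusted p = 9.42e-05). The start-site window of COL7A1 (chr3:48595280-48595579, minus strand, GRCh38.p14, RefSeq) is shown for this reason, with the TATA box and the GC box on either strand in capitals.
COL7A1: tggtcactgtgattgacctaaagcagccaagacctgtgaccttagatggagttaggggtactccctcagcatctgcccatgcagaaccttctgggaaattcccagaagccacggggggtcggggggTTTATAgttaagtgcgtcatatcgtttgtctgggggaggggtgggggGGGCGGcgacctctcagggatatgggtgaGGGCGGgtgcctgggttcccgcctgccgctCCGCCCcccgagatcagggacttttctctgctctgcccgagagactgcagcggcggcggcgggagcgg
It holds the letters of the TATA box once, at -124 from the start site and on the strand opposite to the gene, and the GC box 3 times. Whether they act as a TATA box was not tested.

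COL8A1, the second collagen of H460 cells, had an FPKM of 64.4, 63.4 and 69.1 in parental cells, 158 in CR, 95.0 and 113 in PR and 133 in DR. All resistant libraries lay above the parental ones (0.83 ± 0.24, adjusted p = 0.0258). The call was lost without parental replicate 1 (adjusted p = 0.0759), parental replicate 2 (0.0951), CR (0.063) or DR (0.0579) and with the form of the library name as a covariate (0.091), although the log2 fold change stayed between 0.64 and 0.78. Its partner COL8A2 had at most 6 reads in any library. COL10A1, the other short-chain gene and a marker of hypertrophic cartilage, had reads only in DR, where there were 63.

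Of 10 FACIT genes, 7 were tested and 4 rose. COL12A1, a fibril-associated collagen of tendon and stroma, was the most expressed, at 13.6, 5.04 and 18.5 FPKM in parental cells, 43.6 in CR, 34.1 and 26.0 in PR and 29.3 in DR. The parental values were themselves widely spread, and the call (1.30 ± 0.41, adjusted p = 0.0319) was lost without parental replicate 1 (adjusted p = 0.0858), parental replicate 2 (0.0667), CR (0.0642), PR replicate 1 (0.0523) or both PR libraries (0.067). COL16A1 was at 0.35, 0.519 and 0.433 in parental cells and at 1.46 in CR, 2.52 and 4.63 in PR and 1.41 in DR (2.31 ± 0.39, adjusted p = 0.00191). COL20A1 rose from at most 9 reads in parental to 86 in CR, 457 and 297 in PR and 201 in DR (5.54 ± 0.85, adjusted p = 0.0012).

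COL21A1 had 9, 0 and 0 reads in the parental libraries, 9 in CR, 70 and 48 in PR and 58 in DR, so CR was no higher than the highest parental library. Its call (3.74, adjusted p = 0.0255) was lost without parental replicate 2 (adjusted p = 0.0909) or parental replicate 3 (0.0762), and the log2 fold change was 8.47 without parental replicate 1. The type IX genes COL9A2 and COL9A3 and the FACIT gene COL14A1 did not pass, with adjusted p-values of 0.0545, 0.907 and 0.954. COL9A1, COL19A1 and COL22A1 had too few reads to be tested, at most 64 in any library.

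The transmembrane collagen COL13A1, which is known from cell contacts and the neuromuscular junction, was at 0.117, 0.061 and 0.0659 FPKM in parental cells and at 1.43 in CR, 1.42 and 2.33 in PR and 2.21 in DR. It rose by a log2 fold change of 4.22 ± 0.37 (adjusted p = 0.000138), with the libraries of the 3 drugs close to each other. COL17A1, the hemidesmosome collagen of epithelial cells, had 0 reads in all 3 parental libraries and 32 in CR, 119 and 110 in PR and 137 in DR. Against a floor of 3 reads over the parental group it was at least 95.6-fold higher (adjusted p = 0.000578), and its FPKM stayed below 0.3 in these libraries. COL23A1 and COL25A1 had at most 19 reads in any library.

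Both multiplexins rose. COL15A1 was at 1.21, 1.74 and 1.74 FPKM in parental cells, 4.60 in CR, 8.48 and 9.31 in PR and 6.01 in DR (2.05 ± 0.25, adjusted p = 0.000391). COL18A1, the precursor of endostatin, was at 0.455, 0.82 and 1.00 in parental cells, 2.24 in CR, 1.93 and 1.83 in PR and 1.99 in DR (1.22 ± 0.26, adjusted p = 0.00556). The resistant levels of COL18A1 lay close together whichever drug had been used.

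In all, 7 members had no read in any parental library. Besides COL17A1 and COL1A2 they were COL6A5, COL6A6, COL10A1, COL22A1 and COL25A1, and none of these 5 exceeded 63 reads in a library. The library names have 2 forms, which may mark a batch. All 28 called members moved in the same direction within each form, although these hold only 1 drug-resistant against 2 parental and 3 against 1 libraries. The members were called on these same libraries, so their agreement is no separate check. No share over all called genes was taken beside it. With the form as a covariate, 23 members were higher and 3 lower, beside 14.6% and 12.7% of all genes, and COL2A1 (adjusted p = 0.0665) and COL8A1 (0.091) were no longer called. For COL7A1 the within-form differences were 5.02 and 5.26, for COL3A1 -1.65 and -2.51, for COL4A1 -1.41 and -1.13 and for COL12A1 0.85 and 2.56, on the log2 scale of TMM-scaled counts.

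Markers of other cell types were set beside these changes. The summed FPKM of the fibroblast markers was between 1.25 and 5.99 in parental and between 4.93 and 14.0 in drug-resistant libraries, and 2 of the 5 tested rose, DCN and PDGFRA, both below an FPKM of 0.32. Among the other lists VWF rose at an FPKM of at most 0.0782, CD68 rose from between 15.0 and 16.9 to between 30.7 and 57.9, and none of the 4 epithelial markers tested was called. The part of these markers in the collagen results was not tested.

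The drugs were also compared one at a time with the mean of the 3 parental libraries, which these comparisons share. A member was counted when log2(FPKM + 1) differed by more than 1, a scale that understates the change of low genes, and no test was run on these single comparisons. CR cells had 9 members more than 2-fold higher and 3 lower of 19 with an FPKM of at least 1, against 5.84% and 7.05% of all such genes. PR cells had 14 higher and 1 lower of 22 (7.62% and 5.62% of all genes), and DR cells 12 and 1 of 20 (5.76% and 5.68%). COL7A1 differed most in each, by 3.72 in CR, 4.66 in PR and 3.57 in DR. In these counts, a gene below 1 in every parental library entered through the drug alone and could be counted higher but not lower. The same holds for the shares of all genes.

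COL3A1 was lower by more than 2-fold in each drug, with differences of -2.57 in CR, -1.52 in PR and -1.97 in DR. COL4A1 and COL4A2 passed this limit in CR only (-1.33 and -1.17), with values of -0.67 and -0.54 in PR and -0.81 and -0.77 in DR. COL1A1 differed by 0.63 in CR, 2.68 in PR and 1.06 in DR, and COL5A3 by 0.74, 1.76 and 0.82. COL8A1 had the reverse order, with 1.25, 0.65 and 1.01. Both PR libraries lay above CR and DR for 12 of 22 members and below for 4, compared with 36.1% and 19.5% of all genes, and the difference between the drugs was not tested.

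PR was the drug with 2 libraries. Tested alone against the 3 parental libraries with edgeR, 24 of 34 members were higher and 3 were lower, beside 17.5% and 10.6% of all 19430 genes tested, with a median log2 fold change of 2.31 against 0.05. COL7A1 (5.44 ± 0.30, adjusted p = 0.000202), COL1A1 (5.07 ± 0.39, adjusted p = 0.000496) and COL5A1 (3.30 ± 0.41, adjusted p = 0.00181) were among those higher. COL6A3, whose PR levels were given above, was called here (2.63 ± 0.62, adjusted p = 0.0134), as was COL1A2, which was at least 17.6-fold higher against the floor of 3 reads. COL4A4, COL4A6, COL8A1 and COL12A1 were not called, with adjusted p-values of 0.107, 0.0652, 0.197 and 0.131.

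The PR calls depended on having both PR libraries. Without PR replicate 2, 12 members were higher and none lower, beside 3.39% and 1.42% of all genes. Without PR replicate 1, 16 were higher and 1 lower, beside 6.53% and 3.84%. COL7A1, COL1A1, COL5A1, COL13A1, COL15A1 and COL16A1 were among the 12 that held under every setting tried. COL6A3 lost its call without PR replicate 2 (adjusted p = 0.15) and COL1A2 without either PR library (0.0846 and 0.111). COL3A1 missed without PR replicate 2 (0.0847), and COL4A1 without either of them (0.0718 and 0.215). COL4A2 passed under only 8 of 16 alternatives, with adjusted p-values of 0.0833 with upper-quartile scaling, 0.0768 with no scaling factors, 0.132 with limma, 0.078 with a filter on FPKM, 0.0743 with the name form as a covariate, 0.0781 without parental replicate 1, and 0.16 and 0.261 without PR replicate 1 or 2.

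Genes that make and handle collagen were examined in the same test of 4 against 3 libraries, as 6 lists. Of 48 tested, 15 were higher and 3 lower, where 18.5% of all genes were higher and 15.3% lower. Collagen receptors had 5 of 9 higher and none lower, led by ITGA10 (2.99 ± 0.44, adjusted p = 0.000904), the alpha subunit of a collagen-binding integrin, the endocytic receptor MRC2 (1.91 ± 0.38, adjusted p = 0.00428) and the receptor kinase DDR1 (1.45 ± 0.22, adjusted p = 0.00117). DDR1 was at 9.69, 9.79 and 14.3 FPKM in parental cells against 31.2 in CR, 37.1 and 40.8 in PR and 27.5 in DR.

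Among enzymes of prolyl and lysyl modification, 2 of 15 were higher and 1 lower, below the shares of all genes. Those called were the prolyl hydroxylase subunits P4HA2 (1.11 ± 0.24, adjusted p = 0.00691) and P4HA3 (1.08 ± 0.25, adjusted p = 0.00871), and the galactosyltransferase COLGALT1, which fell by 0.68 ± 0.17 (adjusted p = 0.0121). In folding and export, 2 of 10 were higher and 1 lower, close to the share of all genes higher and below that lower. CREB3L1, a membrane-bound transcription factor known for its control of type I collagen genes, rose by 4.72 ± 0.52 (adjusted p = 0.000273), from at most 0.044 FPKM in parental cells to 1.02 in CR, 1.12 and 1.75 in PR and 0.525 in DR. FKBP10, an endoplasmic reticulum chaperone, rose from 81.3, 132 and 158 FPKM to 577, 318, 389 and 629 (1.85 ± 0.35, adjusted p = 0.00326), and the coat protein SEC23A fell by 0.71 ± 0.19 (adjusted p = 0.0158).

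In procollagen processing, 3 of 7 were higher and 1 lower. ADAMTS2 (2.89 ± 0.88, adjusted p = 0.0284) and TLL2 (2.73 ± 0.70, adjusted p = 0.014) rose at an FPKM of at most 0.21, and ADAMTS3, another aminopropeptidase, fell by 2.27 ± 0.38 (adjusted p = 0.00177). BMP1, which removes the C-propeptide, also rose (1.78 ± 0.21, adjusted p = 0.000332), and so did the cross-linking enzyme LOXL2, 1 of 3 tested in its list (1.24 ± 0.26, adjusted p = 0.00572). Of 4 degradation genes tested, MMP1, the interstitial collagenase, was at 1.30, 1.03 and 0.478 FPKM in parental cells and at 182 in CR, 220 and 364 in PR and 45.2 in DR (7.62 ± 0.73, adjusted p = 0.000193). The gelatinase MMP2 had 0 reads in the parental libraries and 25 in CR, 616 and 501 in PR and 61 in DR (adjusted p = 0.00501).

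TS cells were compared with cells in 2D culture within each line. By the study's methods, 2D cells grew in medium with fetal bovine serum and TS cells in the B27 medium with growth factors. The culture form and the medium therefore cannot be told apart. In H460 cells, no member was more than 2-fold higher and 3 of 16 were lower on the log2(FPKM + 1) scale, against 1.93% and 1.97% of all genes. With a pseudocount of 0.1 in place of 1, 7 were lower and none higher. A gene below an FPKM of 1 throughout 1 culture entered through the other alone and could be counted in only 1 direction. COL12A1 and COL15A1 entered through parental cells in this way, and the shares of all genes hold such genes too. COL12A1 was at 0.10 FPKM in TS cells against 13.6, 5.04 and 18.5 in parental cells (difference -3.44). COL3A1 was at 1.30 against 13.6, 21.3 and 26.5 (-3.18), and COL15A1 at 0.238 against 1.21, 1.74 and 1.74 (-1.04). In each case the TS library lay below all 3 parental ones. The 5 members most abundant in H460 TS cells stayed within 2-fold of parental cells. COL5A2, at 300.3 FPKM, and COL6A1, at 12.1, lay below all 3 parental libraries (-0.47 and -0.62), COL4A6, at 41.6, lay above them (0.44), and COL8A1 and COL4A5, at 68.0 and 20.2, lay within their range.

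A549 cells showed a different set, with 6 members higher and 6 lower of 18, against 6.7% and 3.02% of all genes. Entry through 1 culture alone limited the direction here too. Of the members counted, COL13A1 and COL21A1 entered through TS culture alone, and COL5A1, COL11A1 and COL12A1 through 2D culture alone. COL4A1 was at 17.4 FPKM in 2D and 1.95 in TS culture (-2.64), and COL4A2 at 35.0 and 6.99 (-2.17). The X-linked pair went the opposite way, with COL4A5 at 5.35 and 25.7 (2.08) and COL4A6 at 8.41 and 36.4 (1.99). COL4A3 and COL4A4 were at 0.147 and 0.94, and at 0.671 and 1.73, short of the 2-fold limit. The same opposition between COL4A1 with COL4A2 and the other pairs was described above for drug-resistant H460 cells, and H460 TS cells had differences of 0.05 and 0.15 for COL4A1 and COL4A2.

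Outside type IV, COL5A1 was at 7.30 FPKM in 2D and 0.216 in TS-cultured A549 cells (-2.77), COL12A1 at 2.58 and 0.304 (-1.46), COL6A2 at 9.03 and 2.50 (-1.52) and COL11A1 at 1.24 and 0.0239 (-1.13). Higher in TS cells were COL21A1, at 0.419 and 4.96 (2.07), COL5A2, at 29.1 and 99.3 (1.73), COL3A1, at 1.95 and 8.42 (1.67), and COL13A1, at 0.351 and 3.16 (1.62). COL12A1 was the member beyond 2-fold in the same direction in both lines on the log2(FPKM + 1) scale. This scale understates the change of low genes, so others that were lower in both lines could miss the limit. COL16A1 was at 0.35, 0.519 and 0.433 FPKM in parental H460 cells and 0.023 in H460 TS cells (-0.49). In A549 cells COL16A1 was at 0.614 in 2D and 0.163 in TS culture (-0.47).

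**Figure D5:**
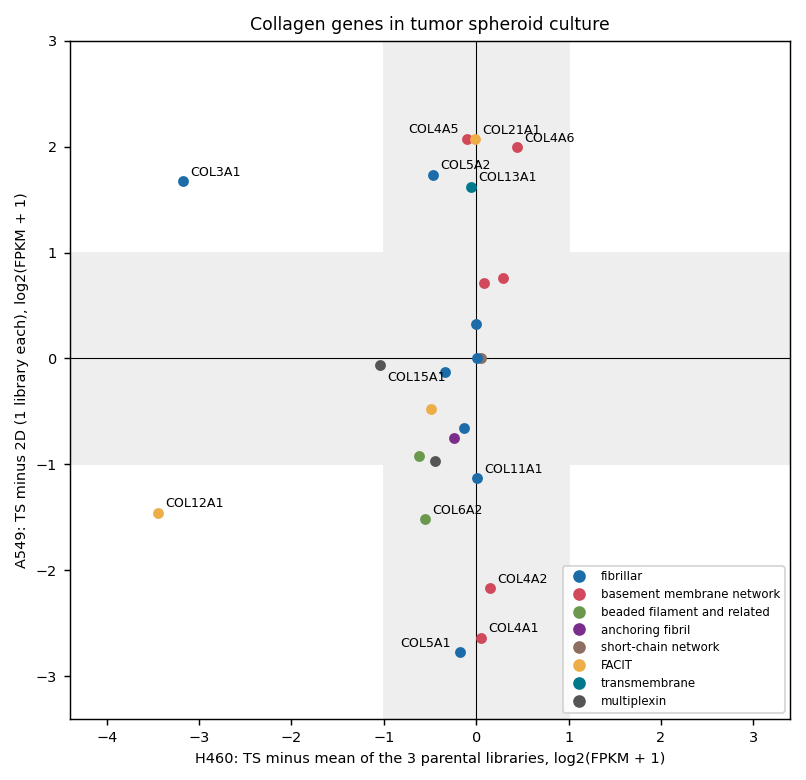
Difference between TS and 2D culture in H460 (x axis) and A549 cells (y axis) on the log2(FPKM + 1) scale, with 1 point for each of the 24 collagen genes that reached an FPKM of 1. Grey bands hold differences under 2-fold, and COL12A1 is the point below both bands while COL3A1 lies at -3.18 in H460 and 1.67 in A549.

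With both lines in 1 test (2 TS against 4 2D libraries, the line as a covariate), edgeR called 0 of 34 members, beside 0.147% of 18372 genes called higher and 0.0435% lower. At an unadjusted p under 0.05 there were 13 members. On simulated counts this edgeR fit recovered only 3% of 2-fold and 47% of 4-fold changes. limma called 0 of 15, and DESeq2 called 4 lower, beside 1.69% of genes higher and 1.23% lower. These were COL12A1 (-5.13 ± 0.86, adjusted p = 7.43e-07), COL15A1 (-2.26 ± 0.47, adjusted p = 0.000167), COL16A1 (-2.97 ± 0.63, adjusted p = 0.000208) and COL5A1 (-3.43 ± 0.72, adjusted p = 0.00022).

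edgeR gave nearly the same log2 fold changes for these 4, from -5.08 to -2.21, with adjusted p-values of 0.229, 0.187, 0.192 and 0.167. Leaving out a library let some pass in edgeR too. They were COL4A1 and COL5A1 without H460 TS (adjusted p = 0.0491 and 0.0206), COL3A1, COL12A1 and COL16A1 without A549 2D (0.0126, 0.0108 and 0.0439), and these 3 with COL15A1 without A549 TS (0.0106, 0.00912, 0.0308 and 0.0486). Without a TS or the A549 2D library the test rests on 1 TS library or on 1 line. Of 48 pathway genes tested, edgeR and limma called none, with 4 and 3 at an unadjusted p under 0.05, and DESeq2 called 1 higher and 2 lower. The summed FPKM of the fibroblast markers was 28.3 in H460 TS cells, of which LUM was 26.6.

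The 2 lines differed in 2D culture for most expressed members. Against the mean of the 3 H460 parental libraries, A549 cells had 9 members more than 2-fold higher and 8 lower of 18, compared with 11.2% and 7.73% of all genes. Of these, COL1A1, COL5A1 and COL11A1 were below an FPKM of 1 in every parental library and could only be counted higher. COL8A1 and COL15A1 were below 1 in A549 2D cells and could only be counted lower. The shares of all genes hold such genes too. COL18A1 (37.7 FPKM in A549 and at most 1.00 in parental H460 cells, difference 4.47) and COL7A1 (17.9 and at most 1.03, 3.28) were highest in A549 relative to H460. COL5A1, COL4A1, COL6A2 and COL4A2 followed, with differences of 2.83, 2.58, 2.36 and 2.02.

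COL8A1 had 0 reads in either A549 library, so parental H460 cells were at least 9058-fold higher than A549 2D cells against a floor of 3 reads in that library. COL5A2 was at 29.1 FPKM in A549 2D cells against 328, 425 and 516 (-3.79), and COL3A1 at 1.95 against 13.6, 21.3 and 26.5 (-2.81). The X-linked type IV genes were also lower in A549 cells, COL4A5 at 5.35 (-1.83) and COL4A6 at 8.41 (-1.74). The chains of type V collagen were therefore closer to each other in 2D-cultured A549 cells, where COL5A2 FPKM was 3.99 times that of COL5A1. In A549 TS cells this ratio was 460. There is 1 library for each A549 culture, so these differences have no replicate check.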

How the data were processed

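Poly(A) RNA of 10 libraries of H460 and A549 cells had been sequenced by the authors on HiSeq instruments. The submitters' processing notes name bcl2fastq, Trimmomatic, HISAT2 2.1.0 and StringTie 2.1.3b and the build GRCh38. The table deposited by the authors gives read counts, FPKM and TPM for each gene and library. StringTie derives a count from coverage, so a count is not always 1 independent read. The TPM values deposited by the authors were not used. Depth limits genes with few reads, and differences there may not be detectable.

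The deposited read counts were tested with edgeR 4.0.16 (glmQLFit and glmQLFTest) in R 4.3.3, with TMM scaling, filterByExpr and Benjamini-Hochberg adjustment over all genes tested at 0.05. The fits compared drug-resistant with parental H460 cells, PR with parental cells, and TS with 2D cells with the line as covariate. Approximate standard errors are the log2 fold change divided by the root of F. Comparisons with 1 library used the deposited FPKM as log2(FPKM + 1) with a limit of 1 and no test. Alternatives used DESeq2 1.42.0, limma 3.58.1, other scalings, filters and pseudocounts, the library name form and each library left out. Groups came from the labels, and doses and days from the study's methods. Parental and PR libraries share replicate numbers, but 2 pairs do not establish a pairing. All collagen genes were considered, and those with an FPKM of at least 1 in a library or called in a fit are named with values. The collagen genes and the lists were chosen with earlier results of these data known. Promoter windows came from RefSeq (GRCh38.p14). Counts were simulated for the genes tested, with 100 genes changed 2-fold and 100 changed 4-fold in each fit. From these counts edgeR recovered 24% of 2-fold and 62% of 4-fold changes in the drug-resistant fit. It recovered 4% and 59% in the PR fit, and 3% and 47% in the TS fit. The real drug-resistant and PR fits called far more genes than were changed in the simulation, so recovery in the data may differ from these rates. A member not called may still differ.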

Additional observations from a re-analysis of the deposited data

Results flagged for a closer look

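COL4A5 stood apart in 1 of the 4 drug-resistant H460 libraries, with an FPKM of 86.7 in CR against 59.8, 58.5 and 54.9 in PR and DR. The gap to the nearest library was 0.845 of the range of the group, above Dixon's 95% critical value for 4 samples, which chance passes in about 1 of 20 groups. In all, 22 collagen genes were examined in this way, so a flag of this kind can arise by chance. The 4 libraries are also not replicates of 1 drug. COL3A1 differed in opposite directions between TS and 2D culture in the 2 lines, by -3.18 in H460 and by 1.67 in A549 cells on the log2(FPKM + 1) scale. The difference between the lines was not tested.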

How the results depend on the processing

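No collagen gene called in the drug-resistant or PR fit changed sign under any alternative run. Some members not called did change sign. Among them, COL6A3 went from 1.85 to -0.24 (log2) in the drug-resistant fit without both PR libraries. In the TS fit COL21A1 went from 1.89 to -0.83 and COL5A3 from 0.45 to -0.97 with DESeq2. For PR against parental cells, COL5A2 was at -0.17 with edgeR and at 0.09 as a difference of mean log2(FPKM + 1). In the test of drug-resistant against parental cells, 22 of 28 called collagen genes passed under every setting, and in PR against parental cells 12 of 27. With a pseudocount of 0.1, the members beyond 2-fold numbered 23 in CR (20 higher), 27 in PR (25), 23 in DR (21), 7 in H460 TS (0), 21 in A549 TS (11) and 26 in A549 against H460 2D cells (14), and DR had 7 with parental replicate 3 alone as control. Without both PR libraries, a choice made after seeing the data, 3355 genes were called in all. The PR fit called 17 members and 2742 genes with a filter on FPKM and 3026 genes with limma. The TS fit called 4 members and 537 genes with DESeq2, and 19 genes with the filter on FPKM. The cause of these shifts was not tested. Leaving out 1 library gave 22 to 27 members and 4215 to 6585 genes for drug-resistant cells, 12 to 30 members and 950 to 6661 genes for PR, and 0 to 4 members and 6 to 322 genes for TS. With a replicate block over parental and PR replicates 1 and 2, 30 members were called (27 higher and 3 lower), the same counts as without the block on those 4 libraries. Same-numbered libraries deviated with r = 0.156 over 12496 genes. Each A549 culture, CR, DR and H460 TS has 1 library, so the spread within these groups was not measured.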
